A study of Mus musculus with 19 samples.

Results

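The comparison was between 4 mammary tumors (TN) and 4 mammary glands (MGN) of mice carrying the MMTV-neu transgene, in which a viral promoter active in mammary epithelium drives Erbb2 (also called neu), and whose fibroblasts carried wild-type p53. These 8 samples were chosen by their labels from the 19 of the series, which also holds 8 tumors and glands with mutant p53 in fibroblasts (TNP and MGNP) and 3 glands of wild-type mice (MGWT). All 4 TN tumors were MMTV-neu;Fsp-Cre, where the Cre recombinase is driven by the promoter of the fibroblast gene S100a4. MGN replicate 1 had that same genotype, whereas MGN replicates 2 to 4 were MMTV-neu;p53wm-R172H/+, which carry the conditional p53 allele without Cre. TNP and MGNP samples carried all 3 alleles. Tumors and glands came from female mice of a mixed FVB, BALB/c and C57BL/6 background, the MGN glands had no malignant lesion but came from tumor-bearing mice, and no TN library shares an animal number with an MGN library, so p-values measure the spread between these samples.

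A mammary gland is a tree of ducts, with an inner layer of luminal epithelial cells and an outer layer of contractile basal (myoepithelial) cells, set in a pad of white fat with fibroblasts, vessels and immune cells. ERBB2 is a receptor tyrosine kinase without a known ligand that signals mainly when paired with ERBB3 or EGFR, and tumors of MMTV-neu mice grow from luminal epithelium. Each sample was a piece of whole tissue, so in every value below fewer cells of a type and less RNA per cell cannot be told apart.

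RNA-seq libraries held 23520971 to 27262440 reads on genes in TN and 20899152 to 26373331 in MGN. Values are normalized counts (reads divided by a size factor of the library), given in the order of replicates 1 to 4, differences are on the log2(normalized count + 1) scale as TN minus MGN with their standard errors (SE), and a gene was called higher or lower at a Benjamini-Hochberg adjusted limma p under 0.05 and at least 2-fold. Of 17950 genes tested, 2289 (12.8%) were higher and 4009 (22.3%) were lower in TN, together 35.1%, and the median difference over all genes tested was -0.05. Falls were also larger than rises. At least 8-fold differences were called for 1520 lower and 318 higher genes, and the values of TN and MGN did not overlap for 49.2% of all genes tested. These shares of all genes tested are the background for every count of list members below. The counts differed more among tumors than among glands, with a chi-square per degree of freedom of 155.5 to 297.1 between pairs of TN libraries and 70.8 to 110.8 between pairs of MGN libraries. The 3 MGWT libraries, labelled mammary gland, held Adipoq at 1.71, 23.4 and 9.82 and a white fat list share of 0.0309 to 0.0394% of reads, where MGN had 2.69 to 3.35%, so adipocyte markers that define the fat pad were nearly absent from them and their levels are given below only for orientation. With MGN replicate 1, the only gland of the tumors' genotype, as the lone gland, 174 genes were higher and 310 lower, where that sample was assumed to vary like the tumors.

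**Figure D1:**
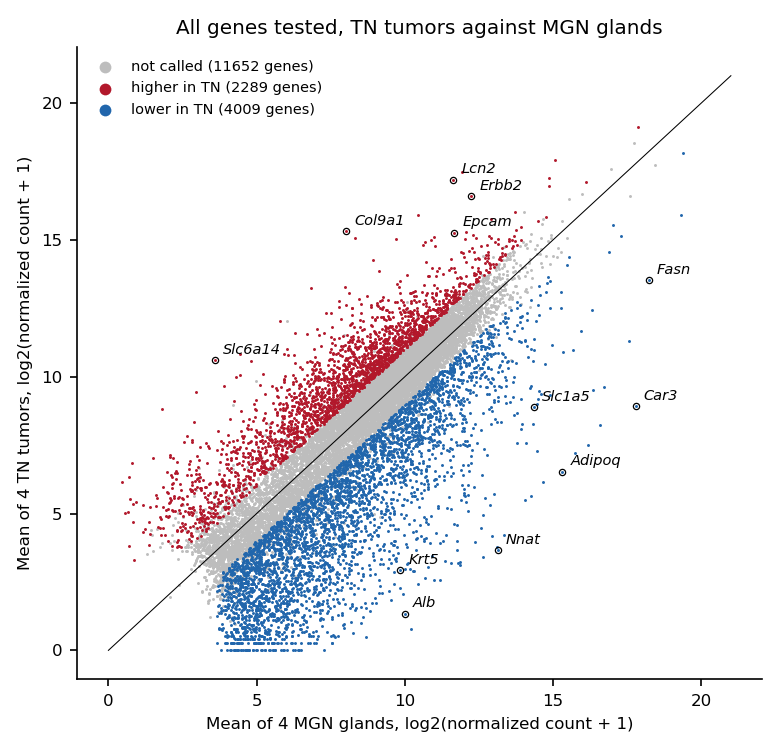
Mean log2(normalized count + 1) of the 4 MGN glands (x axis) and the 4 TN tumors (y axis) for the 17950 genes tested, with called genes in color and 12 named genes circled. The cloud of 4009 lower genes reaches farther from the diagonal than that of the 2289 higher genes.

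Erbb2, which the transgene expresses from a viral promoter, was counted at the mouse locus (chr11:98412470-98437716, GRCm38), which that promoter does not drive. Erbb2 was higher in every tumor than in every gland. Its normalized counts were 81841, 73426, 155042 and 102598 in TN and 14718, 1845, 9610.0 and 2046 in MGN (4.36 ± 0.68, adjusted p = 0.001), and reads of the transgene and of the mouse gene were not told apart. MGN replicates 1 and 3 stood above replicates 2 and 4, and the 3 MGWT glands had a mean of 3963. Erbb3, which encodes the signaling partner of ERBB2, rose from 2499, 1464, 3145 and 1183 to 10844, 19467, 14262 and 21483 (3.05 ± 0.34, adjusted p = 0.00025). In the list of ERBB receptors and their ligands, 6 of 12 tested members were higher and 3 were lower, with a median difference of 1.77. The ligand gene Nrg2 counted 781, 827, 1059 and 1218 in TN against 70.0, 40.2, 61.0 and 71.1 in MGN (3.99 ± 0.25, adjusted p = 3.4e-05), and Hbegf, the gene of another EGF-family ligand, rose as well (2.56 ± 0.39, adjusted p = 0.001). Every tumor was above every gland for Erbb3, Nrg2 and Hbegf. The partner receptor gene Egfr fell from 7330.1, 10094, 5754 and 8276 to 4963, 2480.3, 3290.1 and 2077 (-1.35 ± 0.28, adjusted p = 0.0045). Areg, whose product amphiregulin acts downstream of estrogen in the ductal epithelium, fell from 355, 867, 764 and 356 to 14.8, 92.7, 28.3 and 36.2 (-3.92 ± 0.56, adjusted p = 0.00069), and Nrg4, which white and brown adipocytes express, fell from 1577, 2564, 2699 and 1905 to 29.5, 3.16, 62.6 and 17.5 (-6.76 ± 0.72, adjusted p = 0.00021). Trp53 values of 708, 1554, 899.8 and 1083 in TN and 636, 696, 764 and 653 in MGN overlapped and were not called (0.57 ± 0.23, adjusted p = 0.066).

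Most luminal genes were higher in TN. Of 19 tested luminal list members, 14 were higher, 2 were lower and 3 were not called (median 2.33), and the list took 0.538 to 0.887% of reads in TN and 0.0843 to 0.198% in MGN. Epcam, an epithelial adhesion molecule, counted 33074, 45956, 40895 and 39187 in TN and 5402, 2053, 4786 and 2027 in MGN (3.62 ± 0.34, adjusted p = 0.00014). Both partners of the simple-epithelium keratin pair rose, Krt18 (2.99 ± 0.39, adjusted p = 0.00048) and Krt8 (2.57 ± 0.35, adjusted p = 0.00056), as did the tight-junction genes Cldn3 (3.48 ± 0.32, adjusted p = 0.00012) and Cldn7 (3.06 ± 0.36, adjusted p = 0.00032). Krt19, a further luminal keratin, went the other way. Its counts were 215, 33.7, 215 and 39.7 in TN and 2951, 2833, 3478 and 3515 in MGN (-5.14 ± 0.62, adjusted p = 0.00034), and no tumor reached any gland. Foxa1, the pioneer factor that opens chromatin for the estrogen receptor, fell to 1.14, 92.7, 4.04 and 2.33 from 91.7, 202, 314 and 196 (-4.60 ± 1.09, adjusted p = 0.0077), with TN replicate 2 just above the lowest gland, and edgeR's quasi-likelihood test on recovered reads did not call it (adjusted p = 0.0607).

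Basal genes fell in the same libraries. Of 15 tested members of the basal list, 11 were lower and 2 were higher (median -2.89). Krt5 and Krt14 encode the keratin pair of basal epithelium. Krt5 counted 3.41, 5.27, 26.3 and 3.50 in TN and 512, 1222, 1691 and 671 in MGN (-6.91 ± 0.64, adjusted p = 0.00012), and Krt14 counted 12.5, 6.32, 45.4 and 8.17 in TN and 410.1, 1104, 1521 and 590.1 in MGN (-5.80 ± 0.64, adjusted p = 0.00023). Contractile genes of the myoepithelium were lower too, namely the smooth muscle myosin Myh11 (-4.33 ± 0.35, adjusted p = 7.6e-05) and calponin Cnn1 (-4.55 ± 0.74, adjusted p = 0.0013), genes that the smooth muscle of vessels also expresses. The 2 that rose were Dsg3, a desmosomal cadherin (4.17 ± 0.88, adjusted p = 0.0045), and Sox10, a transcription factor of mammary progenitor and basal cells, at 7992, 4181, 7073 and 8221 in TN and 675, 437, 794 and 356 in MGN (3.62 ± 0.31, adjusted p = 8.5e-05). TN replicate 3 had the highest count of the 4 tumors for Krt5, Krt14, Cnn1 and Myh11.

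**Figure D2:**
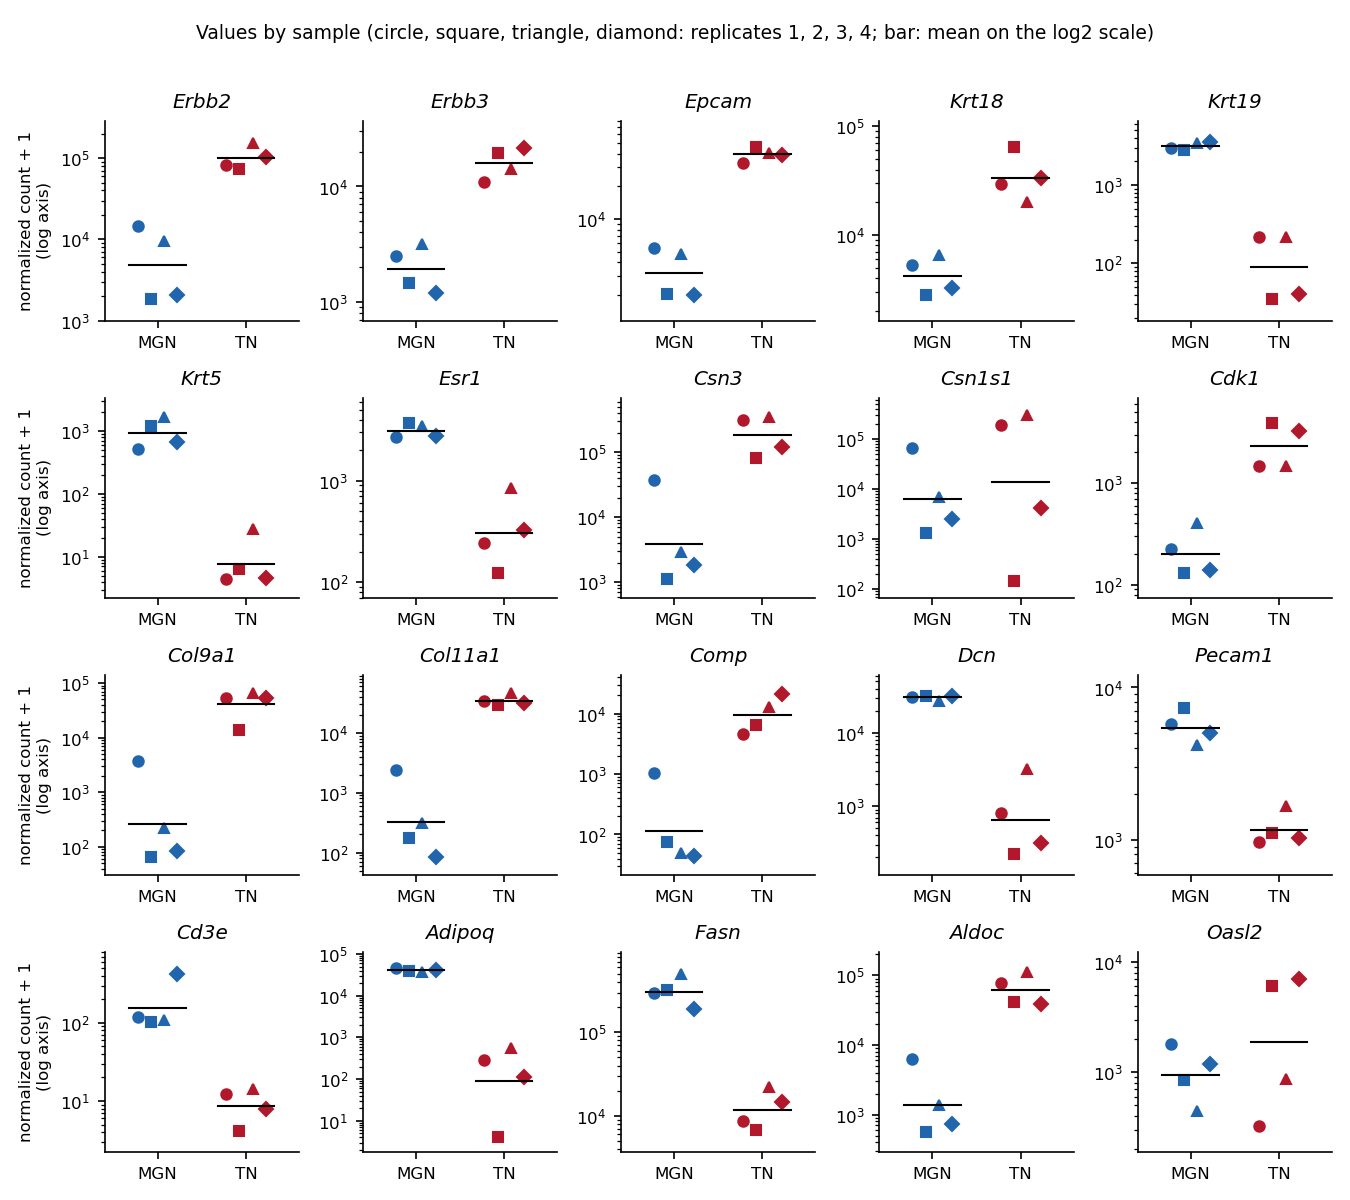
Normalized count + 1 of 20 genes (log axis) in the 4 MGN glands and 4 TN tumors, with a marker shape for each replicate and a bar at the mean on the log2 scale. The groups are apart for Erbb2, Epcam, Krt19, Krt5, Cdk1, Col9a1 and Adipoq and overlap for Csn1s1 and Oasl2, where TN replicates 1 and 3 and TN replicates 2 and 4 sit on opposite sides.

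Estrogen- and progesterone-response genes were lower in TN. In the hormone list 7 of 13 tested members fell and none rose (median -2.84). Esr1, the estrogen receptor gene, counted 239.7, 122, 854 and 326 in TN and 2700.2, 3720.3, 3435 and 2751 in MGN (-3.37 ± 0.50, adjusted p = 0.00085). Pgr, the progesterone receptor gene, was at 286, 4.21, 12.1 and 1.17 in TN and 1207, 537, 715 and 787 in MGN (-5.76 ± 1.30, adjusted p = 0.0062), with TN replicate 1 far above the other 3 tumors, and by edgeR it missed the threshold (adjusted p = 0.0595). Tnfsf11, which encodes the progesterone-induced signal RANKL, fell (-5.29 ± 0.95, adjusted p = 0.002), and so did the estrogen target Greb1 (-3.95 ± 0.80, adjusted p = 0.0036).

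Of 12 tested milk genes 2 were called, Csn3 and Lcn2, both higher (median 0.88). Csn3, which encodes kappa-casein, counted 317016, 81334, 345119 and 121959 in TN and 37545, 1131, 2946 and 1855 in MGN (5.54 ± 1.03, adjusted p = 0.0025). Lcn2, the gene of the iron-carrier binding protein lipocalin 2, counted 182776, 163645, 172453 and 100264 in TN and 17915, 1319, 2719.7 and 1618 in MGN (5.56 ± 0.74, adjusted p = 0.00052). The other caseins split the tumors. Csn1s1, an alpha-casein gene, stood at 186943, 144, 301356 and 4119.8 in TN and 65332, 1332, 6800.1 and 2464 in MGN (1.13 ± 2.37, adjusted p = 0.71), and Lalba, encoding the lactose synthase subunit alpha-lactalbumin, at 99399, 786, 12404 and 331 in TN and 7266, 5.75, 14.1 and 22.7 in MGN (6.03 ± 2.46, adjusted p = 0.068). In both genes TN replicates 1 and 3 were far above TN replicates 2 and 4, and MGN replicate 1 was the highest gland. Without MGN replicate 1 the Lalba difference became 8.30 (adjusted p = 0.00902) and was called, as it was in the fit of all 5 groups (adjusted p = 0.0157). With MGN replicate 1 as the lone gland the differences of Csn3 (2.27, adjusted p = 0.224) and Lcn2 (3.07, adjusted p = 0.0583) were smaller and not called.

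Genes of mitosis were higher in every tumor than in every gland. All 24 members of the mitosis list rose (median 2.89), beside 12.8% of all genes tested, and they took 0.124 to 0.382% of reads in TN and 0.0223 to 0.0552% in MGN. Cdk1, the kinase that starts mitosis, counted 1462, 3893, 1469 and 3279.5 in TN and 223, 129.9, 401 and 139 in MGN (3.51 ± 0.45, adjusted p = 0.00045). Its cyclin partner gene Ccnb1 counted 801, 2274, 907 and 2011 in TN and 146, 64.4, 248 and 91.7 in MGN (3.47 ± 0.49, adjusted p = 0.00068). Ube2c, encoding the E2 enzyme that helps degrade cyclins at anaphase, counted 451, 1193, 439 and 1279 in TN and 82.8, 56.3, 103 and 43.2 in MGN (3.44 ± 0.45, adjusted p = 0.00047). For each of these, TN replicates 2 and 4 were the higher tumors and MGN replicate 3 the highest gland. Mki67, the gene of the proliferation antigen Ki-67, rose too (2.63 ± 0.36, adjusted p = 0.00064). In the replication list 18 of 22 members were higher (median 1.31), led by the nucleotide-supply genes Tk1 (2.99 ± 0.38, adjusted p = 0.00044) and Rrm2 (2.95 ± 0.51, adjusted p = 0.0018), followed by the origin-firing gene Mcm10 (2.23 ± 0.49, adjusted p = 0.0052). Without TN replicate 2, 11 members of the replication list were called.

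Promoters of these genes share letters that the choice of the lists did not use. Promoter here means 250 bases before to 50 after the RefSeq start (GRCm38.p6), with 1 promoter a gene matched by symbol, and each motif was sought on both strands. The CCAAT box was in 17 of 19 mitosis promoters in the table (89.5%), 13 of 17 replication promoters (76.5%) and 3 of 15 white fat promoters (20%), beside 37.9% of all 27025 and 38.1% of the 11970 of tested genes. TTTGAA, the core of the cell cycle homology region, was in 14 of 19 mitosis promoters (73.7%), 3 of 17 of the replication list (17.6%) and 1 of 15 of white fat (6.67%), beside 18.1% of all and 12.4% of tested genes. GCGGGAA, a form of the E2F site, was in no mitosis promoter of 19, in 8 of 17 of replication (47.1%), in 4.66% of all and in 7.99% of tested genes. A CCAAT can overlap an ATTGG of the other strand, as it does once in Ube2c, each promoter was counted once for a motif, and a match is only a run of letters. The promoters of the 3 mitosis members with the largest rise and of Rrm1, the replication member with the largest rise that held GCGGGAA (1.83 ± 0.25, adjusted p = 0.00063), follow with these motifs in capitals.
Cdk1 (chr10:69352863-69353162, - strand): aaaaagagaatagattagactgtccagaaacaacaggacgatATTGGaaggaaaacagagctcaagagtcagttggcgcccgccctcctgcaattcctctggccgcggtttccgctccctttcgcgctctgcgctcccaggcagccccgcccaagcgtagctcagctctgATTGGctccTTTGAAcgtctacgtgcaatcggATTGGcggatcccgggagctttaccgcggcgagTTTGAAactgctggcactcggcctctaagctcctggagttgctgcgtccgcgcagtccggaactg
Ccnb1 (chr13:100786437-100786736, - strand): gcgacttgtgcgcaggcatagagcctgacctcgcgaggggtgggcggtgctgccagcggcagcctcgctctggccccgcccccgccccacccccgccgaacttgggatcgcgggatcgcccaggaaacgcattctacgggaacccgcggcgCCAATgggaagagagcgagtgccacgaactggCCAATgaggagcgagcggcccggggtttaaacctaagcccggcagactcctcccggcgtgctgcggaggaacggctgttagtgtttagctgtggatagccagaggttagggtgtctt
Ube2c (chr2:164769679-164769978, + strand): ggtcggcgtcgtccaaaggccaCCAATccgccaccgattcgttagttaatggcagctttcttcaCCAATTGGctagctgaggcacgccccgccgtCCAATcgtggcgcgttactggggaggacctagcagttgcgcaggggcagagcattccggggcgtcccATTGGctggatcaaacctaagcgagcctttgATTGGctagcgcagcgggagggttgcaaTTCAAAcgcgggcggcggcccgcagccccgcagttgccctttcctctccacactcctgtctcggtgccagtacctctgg
Rrm1 (chr7:102441445-102441744, + strand): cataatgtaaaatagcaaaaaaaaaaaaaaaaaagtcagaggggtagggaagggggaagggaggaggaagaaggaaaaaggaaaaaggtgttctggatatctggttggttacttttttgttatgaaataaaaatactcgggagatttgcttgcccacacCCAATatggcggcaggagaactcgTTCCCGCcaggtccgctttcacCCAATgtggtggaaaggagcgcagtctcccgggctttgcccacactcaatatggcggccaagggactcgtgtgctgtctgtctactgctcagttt

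Among regulators of G1, 5 of 20 tested members were higher and 4 lower (median 0.63), beside 12.8% and 22.3% of all genes tested. Without TN replicate 4 or without MGN replicate 2, 3 were higher. Ccnd1, which encodes cyclin D1, rose from 3333, 2629.6, 4725 and 2064 to 40482, 21751, 11648 and 15529 (2.72 ± 0.40, adjusted p = 0.0008), and its kinase gene Cdk4 rose (1.42 ± 0.24, adjusted p = 0.0015). Ccnd2, for cyclin D2, fell to 281, 437, 719 and 310.4 from 7059, 6875, 5143 and 6749 (-3.97 ± 0.28, adjusted p = 4.9e-05), and Cdkn1c, for the inhibitor p57, fell (-3.15 ± 0.86, adjusted p = 0.015). Cdkn1a, encoding the p53-induced inhibitor p21, was called higher (2.03 ± 0.56, adjusted p = 0.016) although TN replicate 3 lay below MGN replicate 1. In the p53 target list 3 of 20 members rose and 3 fell (5 without TN replicate 1, median 0.24), beside the same 12.8% and 22.3% of all genes tested. Perp (2.34 ± 0.30, adjusted p = 0.00043) and Plk2 (1.39 ± 0.25, adjusted p = 0.0019) were up. Phlda3 (-1.82 ± 0.33, adjusted p = 0.002) and the death receptor gene Fas (-1.55 ± 0.40, adjusted p = 0.012) were down.

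Of the 6 largest rises among all genes tested, 3 were in genes of a matrix best known from cartilage. Col9a1 (chr1:24177610-24252684), a chain of collagen IX, counted 53575, 14048, 66822 and 54143 in TN and 3766, 63.2, 224 and 83.4 in MGN (7.28 ± 1.19, adjusted p = 0.0013). Col11a1, a chain of the fibril-nucleating collagen XI, counted 34329.7, 28868, 45386 and 31006 in TN and 2365, 171, 312 and 84.5 in MGN (6.73 ± 0.87, adjusted p = 0.00045). Comp, encoding the cartilage oligomeric matrix protein that binds both, counted 4653, 6562, 13064 and 21462 in TN and 1055, 73.6, 47.9 and 42.2 in MGN (6.40 ± 0.99, adjusted p = 0.001). In each of these 3 genes MGN replicate 1 was the highest gland, still below every tumor. With that gland as the lone gland the differences were 3.43 for Col9a1 (adjusted p = 0.0962), 3.86 for Col11a1 (adjusted p = 0.0256) and 3.19 for Comp (adjusted p = 0.0983). The other chains of collagen IX, Col9a2 (3.54 ± 0.59, adjusted p = 0.0015) and Col9a3 (3.12 ± 0.48, adjusted p = 0.001), rose as well, with Col10a1 (4.80 ± 0.52, adjusted p = 0.00021), Col12a1 (2.89 ± 0.65, adjusted p = 0.0059) and Sox9, the transcription factor of chondrocytes and of mammary progenitors (2.24 ± 0.33, adjusted p = 0.00083). In the cartilage list 5 of 10 tested members were higher, 3 without TN replicate 4 or without MGN replicate 4, and 8 of 18 members were too low to test, among them Acan, whose aggrecan defines cartilage, while Col2a1 of the collagen list was too low as well.

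Collagens of ordinary stroma did not follow. The fibrillar collagen list had 6 members higher and 5 lower of 20 tested (median -0.38), beside 12.8% and 22.3% of all genes tested. Col1a1, of the main fibrillar collagen, overlapped between groups at 9574, 7676, 69617 and 11066 in TN and 10412, 57855, 23290.1 and 10543 in MGN (-0.35 ± 0.79, adjusted p = 0.73), with TN replicate 3 the highest of all 8 samples. The type V and VI chains Col5a3 (-2.87 ± 0.45, adjusted p = 0.0011), Col6a1 (-2.11 ± 0.43, adjusted p = 0.0039), Col6a2 (-2.18 ± 0.47, adjusted p = 0.0049) and Col6a3 (-1.86 ± 0.42, adjusted p = 0.0064) fell. Col3a1, of the main reticular collagen, was called lower (-2.33 ± 0.78, adjusted p = 0.034), but not by edgeR (adjusted p = 0.116) and not without TN replicate 1, 2 or 4 or MGN replicate 2 or 3 (-2.21 to -1.92, adjusted p from 0.0708 to 0.0878). Laminins and nidogens of the basement membrane fell, 11 lower and 3 higher of 22 members (median -1.14). Lamc3, a laminin chain, dropped from 1025, 1414, 1804 and 1847 to 6.82, 14.8, 28.3 and 29.2 (-6.35 ± 0.45, adjusted p = 4.9e-05), Lama3 of the epithelial laminin fell (-4.51 ± 0.35, adjusted p = 6.8e-05), and Col4a5 rose (2.68 ± 0.29, adjusted p = 0.0002). Of 25 remodelling genes 13 were lower and 5 higher (median -1.51). The collagenase gene Mmp13 rose (3.68 ± 0.50, adjusted p = 0.00059), while the stromelysin gene Mmp3 (-3.91 ± 0.57, adjusted p = 0.0008), the gelatinase gene Mmp9 (-3.29 ± 0.54, adjusted p = 0.0013) and the inhibitor gene Timp4 (-8.39 ± 0.85, adjusted p = 0.00017) fell.

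Matricellular genes encode products that modulate cell contact with matrix. Of 16 tested members 6 were higher and 4 lower (median 0.82), beside 12.8% higher and 22.3% lower of all genes tested. Thbs4, for the secreted thrombospondin 4, counted 571, 169.6, 1836 and 231 in TN and 63.7, 40.2, 49.8 and 41.2 in MGN (3.21 ± 0.67, adjusted p = 0.0043), and the highest was TN replicate 3. Tnn, for tenascin-W, was at 237, 52.7, 504 and 25.7 in TN and 0, 1.15, 0 and 3.09 in MGN (6.06 ± 0.94, adjusted p = 0.001). Spp1, for osteopontin, rose (4.74 ± 1.07, adjusted p = 0.0061), but MGN replicate 1 at 5725 was close to the lowest tumor at 6414, and with that gland alone the difference was 1.39 (adjusted p = 0.451). Tnxb, for tenascin-X of loose connective tissue, fell from 10010.0, 42414, 10108 and 12847 to 932, 79.0, 3594 and 447 (-4.70 ± 1.04, adjusted p = 0.0056).

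White adipocyte genes had the lowest median of the 40 lists, 19 of 20 tested members lower beside 22.3% of all genes tested (median -7.92). The list took 2.69 to 3.35% of reads in MGN and 0.00896 to 0.0724% in TN. Adipoq, for the adipocyte hormone adiponectin, counted 282, 3.16, 556 and 109.7 in TN and 47029, 38360.2, 36543 and 41765 in MGN (-8.79 ± 1.30, adjusted p = 0.00084). Car3, a carbonic anhydrase abundant in fat, counted 1785, 12.6, 4011 and 568 in TN and 272031, 231134, 200835 and 205015 in MGN (-8.86 ± 1.51, adjusted p = 0.0016). Leptin (Lep, -9.33 ± 1.14, adjusted p = 0.00036), resistin (Retn, -9.12 ± 0.87, adjusted p = 0.00014) and the lipid-droplet coats Plin1 (-8.59 ± 1.63, adjusted p = 0.0027) and Plin4 (-8.68 ± 1.37, adjusted p = 0.0011) fell by similar amounts. The glands were close together and the tumors were not. TN replicate 3 held the most and TN replicate 2 the least of each of these 6 transcripts, with Lep and Plin1 at 0 in TN replicate 2. No tumor came near a gland in any of them.

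**Figure D3:**
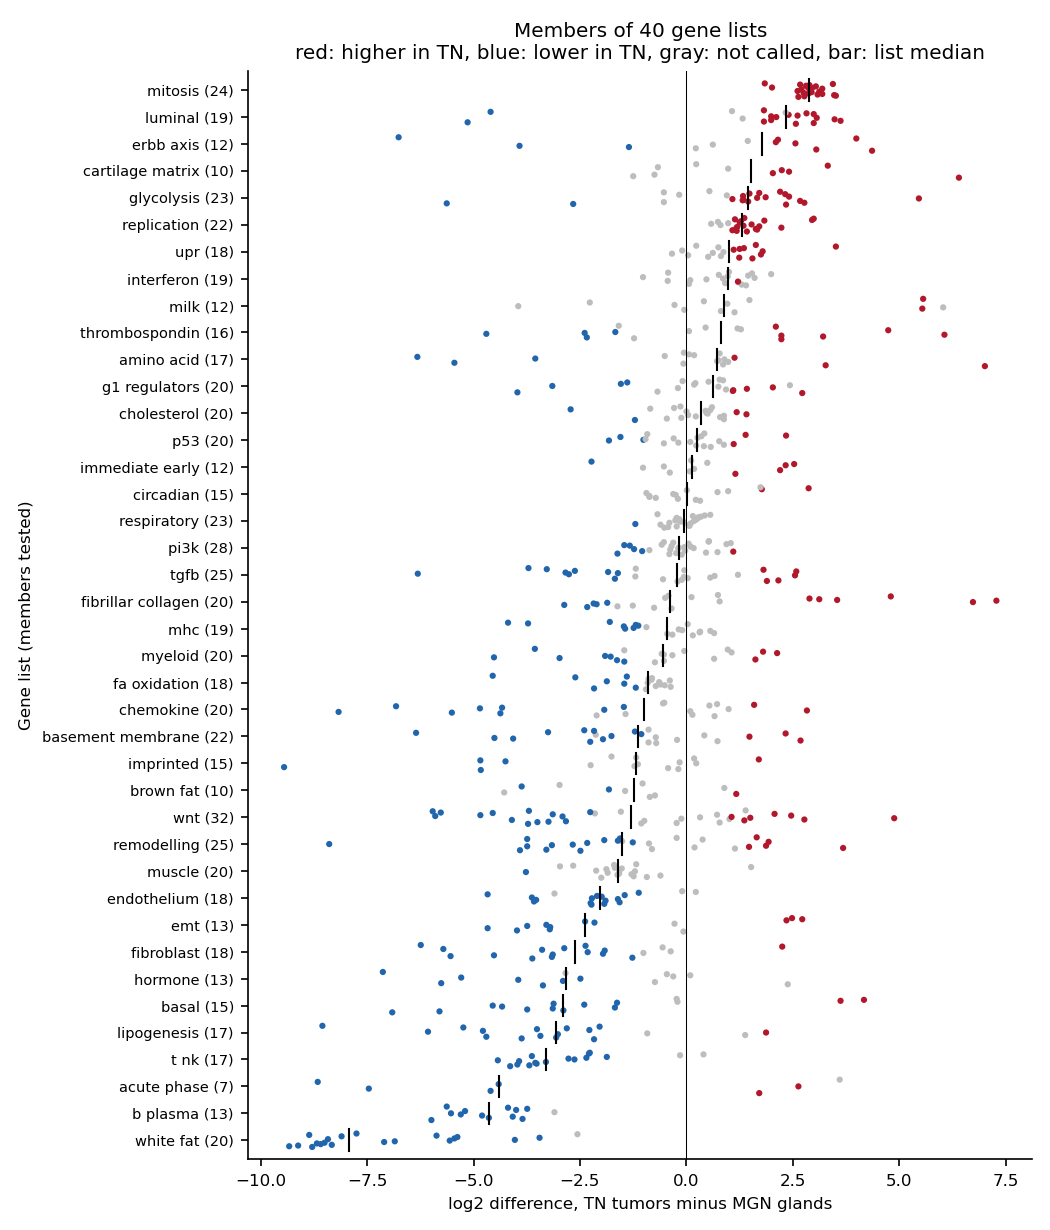
log2 difference (TN minus MGN) of each tested member of 40 gene lists, ordered by the list median (black bar), with called members in color. Mitosis has all 24 members on the right, white fat has 19 of 20 called on the left, and the nuclear-encoded respiratory list sits at a median of -0.06.

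Neuronatin and other single genes fell as far as adipocyte markers. Nnat, an imprinted gene of fat and neuroendocrine cells, had the largest fall among called genes named by size, from 8699, 13495, 6284 and 8744 to 23.9, 0, 50.5 and 19.8 (-9.45 ± 1.07, adjusted p = 0.00025). Inmt, an indolethylamine methyltransferase, fell from 1154, 654, 1681 and 1514 to 3.41, 0, 1.01 and 0 (-9.42 ± 0.54, adjusted p = 2.5e-05). Slc7a10, a small neutral amino acid transporter that marks white adipocytes, fell (-8.61 ± 0.96, adjusted p = 0.00024), and Tshr, the thyrotropin receptor gene that fat also expresses, fell (-8.62 ± 0.85, adjusted p = 0.00015). In the imprinted list 4 of 15 members were lower, Peg10 (-4.84 ± 0.54, adjusted p = 0.00024), Igf2 (-4.83 ± 0.88, adjusted p = 0.0022), Ndn (-4.25 ± 0.53, adjusted p = 0.0004) and Nnat, and Igf2r, for the receptor that clears IGF2, was higher (1.70 ± 0.34, adjusted p = 0.0034). Over all genes tested 22.3% were lower and 12.8% higher. Without TN replicate 3, 9 members of the imprinted list were lower.

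Fatty acid synthesis genes fell with the adipocyte genes. Of 17 tested members 14 were lower (median -3.06), and the list's share of reads went from 3.74 to 6.91% in MGN to 0.388 to 1.12% in TN. Fasn, the fatty acid synthase gene, counted 8739, 6769.6, 22346 and 14737 in TN and 296510.3, 318586, 495185 and 189163 in MGN (-4.70 ± 0.43, adjusted p = 0.00012). Acaca, for the rate-limiting acetyl-CoA carboxylase, counted 4539, 5798, 7359 and 5113 in TN and 99349.7, 66224, 126434 and 54378 in MGN (-3.87 ± 0.29, adjusted p = 5.7e-05). Scd1, for the desaturase that makes monounsaturated fat, took 3.47, 2.22, 3.09 and 1.90 percent of reads in MGN and 0.285, 0.136, 0.611 and 0.107 in TN (-3.43 ± 0.57, adjusted p = 0.0015). No tumor reached a gland in these 3 genes. The regulator gene Mlxipl fell (-4.78 ± 0.32, adjusted p = 4.6e-05), while Srebf1, the master regulator of the program, was the member that rose (1.87 ± 0.50, adjusted p = 0.014). Oxidation genes fell less, 7 lower and none higher of 18 (median -0.90), with Cpt2 (-2.17 ± 0.19, adjusted p = 0.0001) among them. Cholesterol synthesis had 2 higher and 2 lower of 20 (median 0.34, 0 to 4 higher with 1 library left out), with the brake Insig1 lower (-2.72 ± 0.34, adjusted p = 0.0004). The 10 brown fat members tested had 1 higher and 2 lower, and Ucp1, which defines brown fat, overlapped at 842, 1.05, 1139 and 64.2 in TN and 24.2, 783, 86.4 and 813 in MGN (-0.86 ± 2.03, adjusted p = 0.74). With 1 library left out, 1 to 4 brown fat members were lower and 0 to 1 higher.

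Glycolytic genes were higher. Of 23 tested members 16 rose and 2 fell (median 1.45), and the list took 1.31 to 1.69% of reads in TN and 0.387 to 0.532% in MGN. Aldoc, an aldolase, counted 77182, 40879, 111390.4 and 39323 in TN and 6385, 557, 1386 and 736 in MGN (5.46 ± 0.72, adjusted p = 0.00051). Hk1, for the first kinase of the pathway, counted 12212, 11649, 16116 and 21351 in TN and 2564, 2339, 2140.2 and 1738 in MGN (2.77 ± 0.22, adjusted p = 7e-05), and Pfkl, for a phosphofructokinase subunit, counted 21069.8, 27698, 20682 and 28018 in TN and 4346, 3385, 4432 and 3122 in MGN (2.67 ± 0.18, adjusted p = 4.6e-05). Each of these 3 genes was higher in every tumor than in every gland. Both falls were glucose transporters, the insulin-responsive Slc2a4 (-5.63 ± 0.73, adjusted p = 0.00046) and Slc2a3 (-2.66 ± 0.31, adjusted p = 0.00028). Car9, a carbonic anhydrase known as a hypoxia target, rose to 3499, 408, 679 and 1074 from 45.9, 19.5, 16 and 8.24 (5.68 ± 0.70, adjusted p = 0.00038). Of 23 nuclear-encoded respiratory chain genes 1 was called (Sdhb, lower), with a median of -0.06. Sdhb lies on chromosome 4, whose genes had medians of -0.76, -0.51 and -0.75 in TN replicates 2 to 4. The 22 members outside that chromosome had a median of -0.01. Of 8 mRNAs of the mitochondrial genome that were tested 5 were lower, with a median of -1.43. All mitochondrial RNA took 1.26 to 2.34% of reads in TN and 3.33 to 5.68% in MGN.

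Of 17 genes of amino acid transport and serine synthesis 3 were higher (5 without TN replicate 4), 3 lower and 11 not called (median 0.72), beside 12.8% higher and 22.3% lower of all genes tested. Slc6a14, a broad neutral and basic amino acid importer, rose to 1332, 1882, 1489 and 1536 from 189, 2.30, 31.9 and 0 (7.01 ± 1.41, adjusted p = 0.0036), and Slc7a5, the leucine exchanger gene LAT1, rose to 5901, 1576, 4033 and 2849 from 442, 270.1, 369 and 278 (3.27 ± 0.38, adjusted p = 0.00028). Slc1a5, for the glutamine carrier ASCT2, dropped to 399.9, 355, 729 and 498 from 13536, 24455, 25906 and 22200.1 (-5.45 ± 0.28, adjusted p = 2.1e-05), with Slc43a1 (-6.32 ± 0.62, adjusted p = 0.00015) and Slc7a2 (-3.55 ± 0.44, adjusted p = 0.00038) lower as well. Endoplasmic reticulum stress genes had 9 of 18 higher and none lower (median 0.99). The chaperone gene Hspa5 rose from 23767, 13490.5, 10841 and 16661 to 38746, 41038, 47250.3 and 56359.7 (1.55 ± 0.26, adjusted p = 0.0015), and Trib3, a pseudokinase induced by stress, rose from 191.1, 111, 109.9 and 101 to 1539, 786, 1732 and 1941 (3.51 ± 0.32, adjusted p = 0.00012). PI3K and AKT act downstream of ERBB2 and ERBB3, and the PI3K list also holds the receptor genes Igf1r and Insr. In that list 1 of 28 rose (Akt1, 1.10 ± 0.17, adjusted p = 0.0011) and 5 fell (median -0.18), beside 12.8% and 22.3% of all genes tested. Mtor was among the 5 that fell (-1.23 ± 0.19, adjusted p = 0.00091). It lies on chromosome 4, whose genes had medians of 0.10, -0.76, -0.51 and -0.75 in TN replicates 1 to 4. The part of that shift in the Mtor fall was not tested. For the 25 members outside chromosome 4 the median was also -0.18. Without TN replicate 4 Akt1 was no longer called (0.99, adjusted p = 0.00287, under 2-fold).

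Fibroblast genes were lower, 14 of 18 members with 1 higher (median -2.62). Dcn, for the proteoglycan decorin, counted 795, 219, 3246 and 314 in TN and 30524, 31747, 26974 and 32091 in MGN (-5.54 ± 0.72, adjusted p = 0.00048), and Pdgfra, the receptor gene that marks fibroblasts, counted 831, 594, 1423 and 561 in TN and 9811, 10803, 9109 and 9379 in MGN (-3.62 ± 0.28, adjusted p = 6.1e-05). TN replicate 3 was the highest tumor for both. S100a4, whose promoter drives the Cre in these mice, was at 2.27, 0, 16.2 and 1.17 in TN and 24.2, 33.3, 30.1 and 27.8 in MGN (-3.16 ± 0.77, adjusted p = 0.0088), low in all 8 libraries. Of 13 genes of the epithelial-mesenchymal list 8 were lower and 3 higher (median -2.38). The mesenchymal regulators Snai2 (-3.98 ± 0.33, adjusted p = 8.2e-05), Zeb2 (-3.74 ± 0.31, adjusted p = 8.5e-05) and Twist2 (-4.67 ± 0.71, adjusted p = 0.00093) fell, and the 3 that rose, Grhl2, Ovol1 and Ovol2, encode factors that maintain epithelium. Endothelial genes fell in 15 of 18 (median -2.04). Pecam1, an adhesion molecule of endothelium, counted 968, 1109, 1661 and 1026 in TN and 5795, 7302, 4187 and 5000.1 in MGN (-2.23 ± 0.22, adjusted p = 0.00016), and Kdr, the main VEGF receptor gene, fell (-2.25 ± 0.22, adjusted p = 0.00016).

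T and natural killer cell genes were lower, 15 of 17 tested (median -3.30). Cd3e, part of the T cell receptor complex, counted 11.4, 3.16, 13.1 and 7.0 in TN and 118, 99.99, 107 and 426 in MGN (-4.14 ± 0.58, adjusted p = 0.00064), and MGN replicate 4 held the most. B and plasma cell genes were lower in 12 of 13, but the groups overlapped for all but 2, and the number fell to 4 without MGN replicate 4 and to 6 without TN replicate 1, 2 or 4 or without MGN replicate 1 or 3. Igkc, the kappa light chain gene, ran from 75.0, 10.5, 2610.5 and 167 in TN to 13836, 1168, 4422 and 32115 in MGN (-5.63 ± 1.60, adjusted p = 0.017). TN replicate 3 was above MGN replicate 2, and the Igkc call was lost without MGN replicate 4 (-4.89, adjusted p = 0.0503) and by edgeR (adjusted p = 0.0653). Of 20 tested chemokine and inflammatory cytokine genes 8 were lower, 2 higher and 10 not called (median -0.99). Cxcl1, which draws neutrophils (2.83 ± 0.70, adjusted p = 0.0093), and Cx3cl1, the fractalkine gene (1.59 ± 0.45, adjusted p = 0.018), were the 2 that rose. Ccl21a, which draws T cells into lymph nodes, counted 0, 0, 3.03 and 0 in TN and 306, 200.0, 375 and 1201 in MGN (-8.17 ± 0.67, adjusted p = 7.7e-05), a gene with near-identical copies among which reads could be split, and the stromal chemokine Cxcl12 fell (-4.85 ± 0.44, adjusted p = 0.00011). Myeloid genes were mixed, 7 lower and 3 higher of 20 (median -0.56), beside 22.3% lower and 12.8% higher of all genes tested. The resident macrophage receptor gene Cd163 fell from 3122, 7914, 2675 and 4633 to 167, 52.7, 708 and 170.4 (-4.52 ± 0.70, adjusted p = 0.0011), and Cx3cr1, the fractalkine receptor gene of macrophages and monocytes, rose from 237, 137, 253 and 193 to 1288, 565, 1479 and 549 (2.13 ± 0.38, adjusted p = 0.0019). Of the MHC list, 8 of 19 were lower (median -0.45), 5 without TN replicate 2 or 4 or without MGN replicate 2 or 4.

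Interferon-stimulated genes differed widely among the tumors. Irf9 was the 1 called of 19 (1.21 ± 0.33, adjusted p = 0.014), and the list median was 0.97. Oasl2, an antiviral oligoadenylate synthase-like gene, counted 327, 6102, 859 and 7039 in TN and 1796, 855, 448 and 1194 in MGN (0.97 ± 0.97, adjusted p = 0.43), and Irf7, for the amplifier of interferon transcription, counted 739.6, 8183, 1422 and 4424 in TN and 1812, 765, 585 and 1539.7 in MGN (1.23 ± 0.73, adjusted p = 0.19). TN replicates 2 and 4 were above all glands in both genes and TN replicates 1 and 3 were not. Without TN replicate 1 Irf7 was called (1.81, adjusted p = 0.0427), as it was by DESeq2 with all 8 samples (1.66, adjusted p = 0.0326). The list took 0.0342, 0.223, 0.0577 and 0.228 percent of reads in TN replicates 1 to 4, the mitosis list took 0.147, 0.382, 0.124 and 0.264, and the milk list took 3.29, 1.05, 3.70 and 0.915.

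Several of the largest rises outside the lists were in secreted and membrane proteins. Cldn2, a claudin that forms cation-permeable pores, counted 7088, 2047, 687 and 536 in TN and 519.7, 3.45, 19.7 and 11.3 in MGN (5.78 ± 1.42, adjusted p = 0.0093), and edgeR missed the threshold for it (adjusted p = 0.0501). Alkal2, which encodes a ligand of the receptor kinases ALK and LTK, counted 245, 1728, 1948 and 1647 in TN and 89.2, 12.6, 3.76 and 38.1 in MGN (5.63 ± 0.98, adjusted p = 0.0018), and Adcy8, an adenylyl cyclase gene, counted 239.7, 1703, 536 and 1937 in TN and 176, 3.45, 7.51 and 6.18 in MGN (5.77 ± 1.18, adjusted p = 0.0038). The highest tumor differed among them, TN replicate 1 for Cldn2, TN replicate 3 for Alkal2 and TN replicate 4 for Adcy8, and in each of them MGN replicate 1 was the highest gland. With it as the lone gland the differences were 1.55 for Cldn2, 3.58 for Alkal2 and 2.19 for Adcy8, and none was called. Gsn, for the actin-severing protein gelsolin, is one of the lower members of the fibroblast list. It was among the 10 most-read genes of the glands and fell from 153529, 247572, 165788 and 214562 to 3127, 1256, 5425 and 1915 (-6.24 ± 0.42, adjusted p = 4.6e-05).

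Of 32 tested Wnt genes 14 were lower, 7 higher and 11 not called (median -1.30), beside 22.3% lower and 12.8% higher of all genes tested. Axin2, the feedback gene used as a readout of the canonical pathway, counted 20.4, 6.32, 71.7 and 9.34 in TN and 498, 522, 608 and 505 in MGN (-4.84 ± 0.64, adjusted p = 0.0005). The secreted inhibitor genes Wif1 (-5.96 ± 0.57, adjusted p = 0.00014) and Sfrp5 (-5.77 ± 0.85, adjusted p = 0.00082) and the agonist gene Rspo1 (-5.90 ± 0.99, adjusted p = 0.0015) fell, whereas the inhibitor gene Sfrp1 (2.07 ± 0.72, adjusted p = 0.039), the agonist gene Rspo3 (2.46 ± 0.54, adjusted p = 0.0055) and the receptor gene Fzd9 (4.88 ± 1.07, adjusted p = 0.0053) rose. The Sfrp1 call was lost without any 1 library other than TN replicate 1 (1.42 to 2.22, adjusted p from 0.0505 to 0.0951). In the TGF-beta and BMP list 9 of 25 were lower and 5 higher (median -0.21), beside the same 22.3% and 12.8% of all genes tested. Bmp3 (-6.31 ± 0.97, adjusted p = 0.00099), Bmp2 (-2.76 ± 0.33, adjusted p = 0.00033) and the BMP target Id3 (-2.62 ± 0.34, adjusted p = 0.0005) were down. The 5 higher members were Tgfb2, Tgfb3, Inhba, Id2 and Ltbp2. Immediate-early genes had 4 of 12 higher and 1 lower (median 0.14), Junb (2.20 ± 0.30, adjusted p = 0.00054) and Ier2 (2.33 ± 0.23, adjusted p = 0.00016) up and the MAP kinase phosphatase gene Dusp1 down (-2.23 ± 0.35, adjusted p = 0.001). Among clock genes 2 of 15 rose, Bhlhe40 (2.87 ± 0.35, adjusted p = 0.00036) and Hlf (1.77 ± 0.24, adjusted p = 0.00053), with a median of 0.01.

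Markers of skeletal muscle, a tissue beside the gland, varied by sample. Skeletal muscle genes had 1 of 20 called, and their share of reads was 0.0357, 0.00281, 0.204 and 0.00256 in TN replicates 1 to 4 and 0.154, 0.197, 0.0953 and 0.0202 in MGN replicates 1 to 4, highest in TN replicate 3 and lowest among glands in replicate 4. Their part in other results was not tested. Of 7 plasma protein and acute-phase genes tested 4 were lower and 2 higher (median -4.41, or -1.35 without the 1 member on chromosome 4). Alb, the albumin gene, counted 0, 0, 2.02 and 12.8 in TN and 1484, 845, 1162 and 759 in MGN (-8.66 ± 0.80, adjusted p = 0.00012), and Orm1, an acute-phase gene, counted 10.2, 2.11, 45.4 and 8.17 in TN and 2223, 1855, 2585 and 1346 in MGN (-7.46 ± 0.71, adjusted p = 0.00013). Lbp, for the lipopolysaccharide-binding protein, rose from 2399.7, 1809, 1109 and 551 to 6281, 4536, 19812 and 6972 (2.63 ± 0.55, adjusted p = 0.0043). Saa1 and Saa2, the genes of secreted acute-phase serum amyloids, were under the filter on low counts. Saa1 was at 223, 1.05, 12.1 and 0 in TN and 2.55, 2.30, 3.76 and 5.15 in MGN. Saa2 was at 107, 1.05, 14.1 and 3.50 in TN and 3.82, 3.45, 0.940 and 0 in MGN, so TN replicate 1 held most reads of both, and reads of these near-identical neighbors could be split between them.

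Gene classes other than protein-coding had their own balance of calls. Of 141 small nucleolar RNA genes tested 37.6% were higher and 3.55% lower, and of 68 small nuclear RNA genes 44.1% were higher and 13.2% lower. Rpph1, the RNA of ribonuclease P, counted 334474, 163486, 249289 and 285539 in TN and 40192, 30398, 32930.2 and 35177 in MGN (2.86 ± 0.28, adjusted p = 0.00015). Protein-coding genes had 13.2% higher and 20.5% lower. Of 160 sense-intronic genes 42.5% were lower and 3.75% higher, and of 48 immunoglobulin V genes 87.5% were lower.

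Position on the chromosomes separated the tumors from one another. For 13058 protein-coding genes with a mean of at least 50, each sample's log2 difference from the MGN glands (for a gland, from the other 3) was centered on its median and summarized by chromosome. Glands stayed between -0.10 and 0.07 on all 20 chromosomes. Tumors ran from -0.76 to 0.66, and 8 of 80 tumor medians lay beyond 0.3 in size. The 817 genes of chromosome 4 had medians of 0.10, -0.76, -0.51 and -0.75 in TN replicates 1 to 4, so 3 tumors were low and TN replicate 1 was not. Chromosome 3 was at -0.10, 0.66, 0.40 and 0.01, high in TN replicates 2 and 3. Chromosome 9 was at 0.00, -0.69, 0.02 and 0.07, low in TN replicate 2 alone, chromosome 7 at 0.54, 0.03, 0.07 and -0.22, high in TN replicate 1, and chromosome 2 at -0.03, 0.03, -0.04 and 0.38, high in TN replicate 4. No DNA was measured here, and these medians are of RNA.

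**Figure D4:**
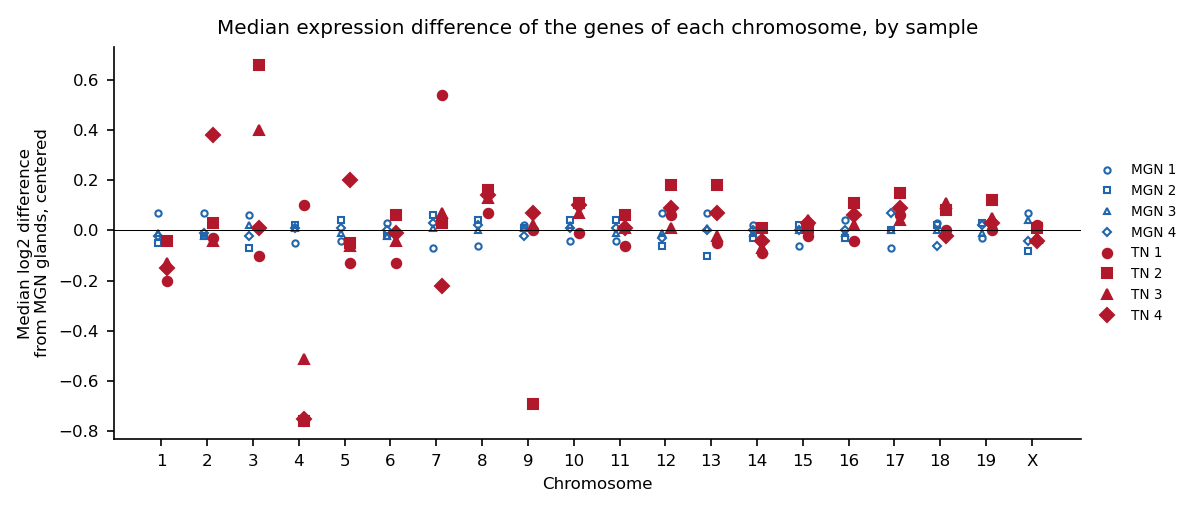
Median centered log2 difference from the MGN glands (y axis) of the genes of each chromosome (x axis) for the 4 TN tumors (filled red) and the 4 MGN glands (open blue, each against the other 3). Gland medians stay within -0.10 to 0.07, and tumors leave that band most on chromosomes 2, 3, 4, 7 and 9.

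The shifts of chromosomes 2, 3, 4, 7 and 9 ran along whole chromosomes or long parts of them. The highest block median of each tumor was instead in a single block shared by all 4 tumors. The lowest was also in a shared block, except in TN replicate 3, whose lowest was -0.67 on chromosome 4. Block 2 of chromosome 13 was at 2.07, 3.46, 2.08 and 3.50 in TN and -0.07, -0.38, 0.97 and -0.17 in MGN. Block 13 of chromosome 1 was at -1.44, -1.15, -0.64 and -1.75 in TN and 0.06, -0.03, -0.20 and 0.01 in MGN. In 16 blocks of about 50 neighboring genes along chromosome 4, the block medians were -0.95 to -0.56 in TN replicate 2, -0.67 to -0.29 in TN replicate 3, -1.01 to -0.42 in TN replicate 4 and -0.27 to 0.37 in TN replicate 1. All 14 blocks of chromosome 9 were at or below -0.3 in TN replicate 2, from -1.01 to -0.41, and all 12 blocks of chromosome 3 were between 0.43 and 0.84 in that tumor. On chromosome 7, TN replicate 1 was high in every block (0.19 to 0.87), while TN replicate 4 was between -0.83 and -0.35 over blocks 10 to 19 and between -0.25 and 0.39 over blocks 1 to 9, a change that fell near position 66839735 (GRCm38). Cdkn2a, the tumor suppressor locus of p16 and ARF on chromosome 4, counted 633, 25.3, 113 and 47.9 in TN and 12.7, 19.5, 9.39 and 37.1 in MGN (2.43 ± 0.92, adjusted p = 0.053), highest in the tumor without the chromosome 4 shift, and it was called by edgeR (adjusted p = 0.0258), by DESeq2 (adjusted p = 0.000747), in the fit of all 5 groups (adjusted p = 0.0259) and without TN replicate 2 (adjusted p = 0.0212). On chromosome 4, 9.06% of genes were higher and 21.4% lower, beside 14.0% and 17.9% of all genes used here. Without chromosome 4 genes the list median was 2.89 for mitosis and -8.10 for white fat, while it moved to -1.35 for plasma protein and acute-phase genes, 0.45 for matricellular genes and -0.53 for chemokines.

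**Figure D5:**
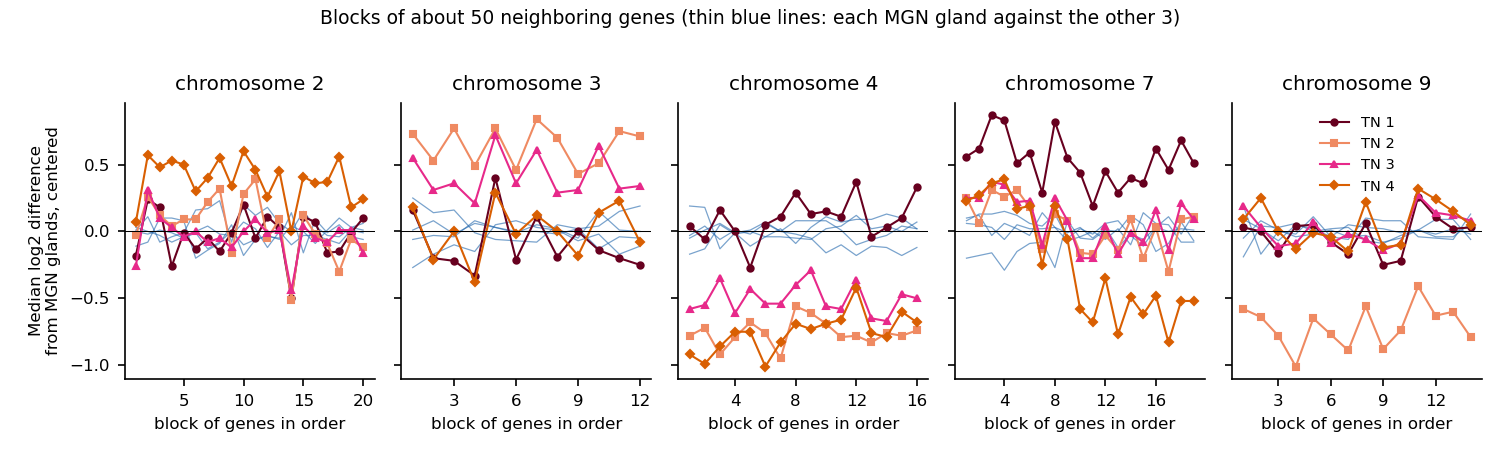
Median centered log2 difference from the MGN glands (y axis) in blocks of about 50 neighboring genes in order along chromosomes 2, 3, 4, 7 and 9 (x axis), with a line for each TN tumor and thin blue lines for the 4 MGN glands. The chromosome 4 lines of TN replicates 2, 3 and 4 stay below 0 in all 16 blocks, and the chromosome 7 line of TN replicate 4 steps down after block 9.

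TNP tumors and MGNP glands gave the same comparison with mutant p53 in fibroblasts. A test of the difference between the TN minus MGN and TNP minus MGNP changes called 0 of 19367 genes in either direction (limma, 0.0% of genes, smallest adjusted p = 0.27), with 1536 genes at an unadjusted p under 0.05, and 0 by edgeR's quasi-likelihood test, with 1805 at an unadjusted p under 0.05. DESeq2 called 319 genes, 269 above and 50 below, and without MGNP replicate 3 limma called 194, of which 11 were below. Skeletal muscle genes took 3.63, 19.6, 0.132 and 11.3 percent of reads in MGNP replicates 1 to 4, lowest in replicate 3, and the part of muscle in these calls was not tested. Without TN replicate 1, limma called 20, 6 above and 14 below. The median SE of this contrast was 0.46, against 0.29 for TN minus MGN, so differences between genotypes had to be larger to be called. Erbb2 had a mean of 106534 in TNP and 7177 in MGNP, with a difference between the 2 changes of 0.32 ± 0.82. Col9a1 stood at 47448 and 674 (0.70 ± 1.50), and Adipoq at 129 and 24432 (-1.14 ± 1.48). Thbs4 was at 396 in TNP and 299.6 in MGNP (2.25 ± 1.13, adjusted p = 0.65). Chromosome medians of the 4 TNP tumors ran from -0.71 to 0.53, and their chromosome 4 medians were -0.27, -0.22, 0.09 and -0.04. TNP replicates 1 and 2 have library names with the same animal number.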

How the data were processed

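RNA-seq was measured in 19 mouse samples, of which the 8 TN and MGN samples form the main comparison. The deposited values are normalized counts, which is a signal unit: the authors counted reads per Ensembl gene and divided them by a size factor for each library. Per the submitters' processing notes reads were mapped with TopHat2 (2.1.1) and Bowtie2 to GRCm38 (mm10). The counting tool and whether strand was used are not given in the sources used here, so reads of a gene and its antisense partner may not be told apart, and the study's methods and the labels name different TruSeq kits. Whole reads were recovered from the steps of the values (100% of nonzero values within 0.05 of a whole read).

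Of 46078 gene identifiers, 97.97% were matched to an Ensembl annotation of GRCm38 and 935 were not. Genes with at least 10 normalized counts in at least 4 of the compared samples were tested with limma (3.58.1, trended variance) on log2(normalized count + 1), with Benjamini-Hochberg adjustment and calls at adjusted p under 0.05 and at least 2-fold. The difference between genotypes was tested in the 16 TN, MGN, TNP and MGNP samples. The study's own test was DESeq2. Since the deposited values are not raw counts, edgeR (4.0.16) and DESeq2 (1.42.0) were run on the recovered reads as alternatives, beside other pseudocounts, filters, scaling, samples and a replicate block. The scripts were tested on simulated data.

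The 40 gene lists and the rules for the genes named were chosen with earlier results of these data known. Genes were named by role in the model, by size of change, by list (up to 6 members), by abundance and by spread. Col1a1, Col3a1, Col5a3, Col6a1, Col6a2, Col6a3, Cdkn2a, Cx3cl1, Cxcl1, Egfr, Grhl2, Krt8, Mki67, Ovol1, Ovol2, Rspo3, Sfrp1, Sox10 and Srebf1 were added after their values were seen.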

Additional observations from a re-analysis of the deposited data

Results flagged for a closer look

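In groups of 4 samples, 398 sets of values were compared by the gap between the most extreme sample and its neighbor over the range. Of these, 26 stood apart. The chance rate of about 1 in 20 does not apply here, because some genes were chosen for their spread or after their values were seen. The number that stood apart is therefore only a description. Sets of genes that share a library or a cell type are not independent.

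TN replicate 3 stood above the other tumors in Col1a1 (69617), Col6a3 (12714), Ndn (111) and Snai2 (24.2), genes of fibroblasts and mesenchyme, and in the antibody gene Ighv11-2 (1513). The same tumor had the largest share of reads on skeletal muscle genes among TN and the most Adipoq. The fibroblast list took 0.103, 0.453, 0.274 and 0.138 percent of reads in TN replicates 1 to 4, most in TN replicate 2. Its mean log2 value was 9.36, 8.54, 10.66 and 8.74, highest in TN replicate 3. TN replicate 2 was the low tumor for Col9a1 (14048) and for the PI3K list (0.304% of reads), and TN replicate 1 the low tumor for Alkal2 (245).

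MGN replicate 1, the gland of the tumors' genotype, stood above the other glands in the milk list (0.996% of reads), Comp (1055), Spp1 (5725) and Trib3 (191.1), and on chromosome medians at 0.07 for chromosome 2 and -0.05 for chromosome 4. MGN replicate 2 was high for endothelium (0.228% of reads) and Col6a3 (49411). MGN replicate 3 was high for the G1 list (0.108% of reads), Col9a2 (918) and Mmp3 (4923) and low for Ccnd2 (5143) and Cxcl12 (3784). MGN replicate 4 was high for T and natural killer cell genes (0.03% of reads) and Cd3e (426) and low for Bmp3 (1078).

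Chromosome medians stood apart for chromosome 2 in TN replicate 4 (0.38) and chromosome 9 in TN replicate 2 (-0.69).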

How the results depend on the processing

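Counts of calls held within 1.5 times under both other pseudocounts, TMM scaling, both filters, edgeR, DESeq2, the fit of all 5 groups and every sample left out (2083 to 2341 higher, 3661 to 4419 lower). edgeR called 2429 higher and 3789 lower, of which 2249 and 3744 were shared with limma, and DESeq2 called 2564 and 3910. Without a fold threshold 4217 were higher. With MGN replicate 1 as the lone gland 174 were higher and 310 lower. Replicate numbers did not pair the samples (correlations of same-numbered deviations -0.094 to 0.07), and a replicate block gave 2181 higher and 3774 lower.

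For the difference between genotypes DESeq2 called 319 genes and leaving out single samples gave 0 to 194. The replicate block, and TNP replicates 1 and 2 averaged, which was chosen after seeing the data, gave 0. The cause was not tested.

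Of 2971 values of 157 named genes under alternatives, 2806 kept their direction and side of the threshold, and 122 of 142 lost calls fell with MGN replicate 1 as the lone gland, where the difference was smaller for 89 of the 122, by over 1.5 times for 17. A replicate block called Lalba (6.03, adjusted p = 0.00618) and lost Sfrp1 (2.07, adjusted p = 0.06). DESeq2 gave no adjusted p for 9 named genes. Direction reversed 12 times, for genes that were not called. With single samples left out Csn1s1 ran from -0.36 to 3.31 (-0.13 without TN replicate 1, -0.36 without TN replicate 3), Col1a1 from -1.07 to 0.17 (without MGN replicate 2) and Ucp1 from -2.0 to 1.04 (without TN replicate 2). With the lone gland Csn1s1 was at -2.27, Lalba at -0.78, Col1a1 at 0.57 and Ucp1 at 2.08. Ucp1 was at 0.28 by edgeR and 0.27 by DESeq2. By edgeR Ighv11-2 was at 0.90 and Igkv14-126 at 0.67. Depth was similar in all 8 libraries, and genes under 10 normalized counts in 5 or more of them were not tested.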

Other observations

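TN replicate 3 held high counts of a particular pair of antibody V genes. Igkv14-126, a kappa V gene, counted 0, 0, 2675 and 5.84 in TN replicates 1 to 4 and 127, 14.9, 84.5 and 1471 in MGN replicates 1 to 4, and Ighv11-2, a heavy-chain V gene, counted 0, 0, 1513 and 2.33 in TN and 43.3, 8.05, 46.0 and 719 in MGN. This pair of V genes is known from B-1a cells that bind phosphatidylcholine. MGN replicate 4 had the next highest counts of both. V genes resemble one another, so reads could be split among them.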
